A study of Mus musculus with 24 samples.

Results

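The matricellular genes Postn, Tnc, Tnxb, Thbs1, Thbs2, Thbs3, Thbs4, Sparc and Sparcl1 were followed in 24 mouse hearts. They encode periostin, 2 tenascins, 4 thrombospondins, and SPARC with its relative SPARC-like 1, and were found by matching these symbols to the Ensembl identifiers of the full count table. All 9 were found, among 41388 genes, and all 9 passed the filter on low counts on every day.

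Hearts came from male wild-type Balb/c mice (BALB/cAnNCrl). Experimental autoimmune myocarditis (EAM) was induced with a peptide of cardiac myosin heavy chain-α in supplemented complete Freund's adjuvant together with pertussis toxin, and control mice received the same adjuvant with saline and the same toxin. RNA from a portion of each heart was sequenced on D10, D15 and D21, counted in days from the first immunization at 8 to 10 weeks of age, with 4 EAM and 4 control mice a day. In both arms the adjuvant injection was repeated before D10. EAM hearts were picked for sequencing, as far as possible, among those with inflammation, which limits them as a sample of all immunized mice. At D10, however, the study found neither raised leucocytes in the heart nor raised cardiac troponin I in any EAM mouse.

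Matricellular proteins are secreted into the extracellular matrix but mostly do not build its fibres. They bind cell-surface receptors, collagens and growth factors, and in that way alter how cells attach, migrate and respond to signals. Many are scarce in the healthy adult heart and are known to reappear after injury and in fibrosis, with fibroblasts as a main source.

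Read totals ran from 15814863 to 24980864 per heart (median 19469782). At D15 totals were 21617982 to 24980864 in EAM hearts and 17421059 to 19958265 in controls, with 3.19% to 4.31% and 6.10% to 7.14% of reads from mitochondrial genes. At D21 totals were 15814863 to 19276313 in EAM hearts and 19593359 to 22859202 in controls. Sums of marker genes, as CPM (reads scaled to library size), showed what else differed between the arms. The 8 leucocyte markers summed to 162 to 357 CPM in control hearts of all days, 302 to 1100 in EAM hearts at D10, 1314 to 1956 at D15 and 379 to 1226 at D21. The 7 cardiomyocyte markers summed to 26650 to 33450 CPM in controls and to 7234 to 18520 in EAM hearts at D15. The 4 atrial markers summed to 55.6 to 180.5 CPM in EAM hearts at D21 and to 1670 to 2573 in controls of that day, and the 7 endocardial and valve markers to 25.8 to 81.5 against 126 to 152. At D10 the atrial sum ran the other way, from 576 to 1866 CPM in EAM hearts and from 209 to 506 in controls. The platelet sum at D15 was 30.6 to 67.8 CPM in EAM hearts and 12.2 to 16.1 in controls, and the adipocyte sum at D21 was 0.166 to 6.27 against 15.8 to 41.0. The sum of 6 myofibroblast markers at D15 was 257 to 379 CPM against 606 to 871. Most reads of that list came from Acta2 (215582 over all hearts, against 22919 for the next gene, Lrrc15), so the sum mainly reflects Acta2. Of the 6 genes, 2 were called higher and 2 lower at D15, beside 18.1% and 12.9% of all genes. No marker of these lists was at 0 in all hearts. The 4 EAM libraries at D21 also carry another library code than the other 20, so code and EAM cannot be told apart on that day. The part of depth, atrial tissue and cell make-up in the results was not tested, and in bulk tissue fewer cells of a type and less RNA per cell cannot be told apart.

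A RefSeq promoter window (build GRCm38.p6) was at hand for 7 of the 9 members. Those of Postn, Tnc and Thbs4 are shown because these genes were higher in EAM hearts at both D15 and D21. Sparc was higher on both days too, but its window overlaps exons of other Sparc transcripts and is not printed. Postn and Tnc each have 2 windows, of which the second is shown. Each line holds the 250 bases before the start site, 5′ to 3′ on the strand of the gene, and capitals mark TATAAA or CATTCC. The stretch of Postn is chr3:54360857-54361106 on the plus strand, that of Tnc is chr4:64047016-64047265 on the minus strand and that of Thbs4 is chr13:92794819-92795068 on the minus strand. None of the 3 stretches overlapped an annotated exon.
Postn: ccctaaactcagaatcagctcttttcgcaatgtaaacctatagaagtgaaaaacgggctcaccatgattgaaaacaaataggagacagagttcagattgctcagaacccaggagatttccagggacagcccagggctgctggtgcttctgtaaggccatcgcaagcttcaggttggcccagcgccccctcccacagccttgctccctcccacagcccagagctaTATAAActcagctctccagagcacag
Tnc: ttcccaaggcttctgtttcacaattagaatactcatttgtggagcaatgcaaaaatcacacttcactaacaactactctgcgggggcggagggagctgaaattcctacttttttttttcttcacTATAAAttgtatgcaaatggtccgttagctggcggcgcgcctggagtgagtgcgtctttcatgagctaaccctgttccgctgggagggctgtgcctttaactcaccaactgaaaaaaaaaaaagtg
Thbs4: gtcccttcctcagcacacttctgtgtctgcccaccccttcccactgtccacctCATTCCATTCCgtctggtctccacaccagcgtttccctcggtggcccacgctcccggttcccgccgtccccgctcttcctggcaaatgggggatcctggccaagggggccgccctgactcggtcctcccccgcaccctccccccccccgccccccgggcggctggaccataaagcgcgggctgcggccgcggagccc

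TATAAA, the letters of the TATA box, stood in these stretches of Postn (at −26 from the start site) and Tnc (at −126). The other window of Tnc overlaps the one shown and holds the same site, at −205 from its own start. In the window of Thbs2 the letters were on the opposite strand only, at −126. They were absent from the other window of Postn. The letters CATTCC, read by TEAD factors, occurred at 2 places of the Thbs4 stretch that share 1 base. Of all 32851 promoter windows (300 bases each), 13.6% held TATAAA and 14.7% held CATTCC on either strand. TGANTCA, read by AP-1 factors, was present in 7.81% of all windows and, among the 7 members with a window, in that of Tnxb alone. CAGAC (SMAD) and CANNTG (E-box) were common letters, in 49.6% and 72.3% of all windows. The window of Thbs4 had 72.0% GC, against a median of 52.7% over all windows. Such matches describe letters and were not set against binding data.

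In control hearts the members differed widely in level. Levels are given here as RPKM (CPM per kilobase of the union of a gene's exons), the scale on which genes can be set beside each other. Over the 12 controls the mean level was 211 ± 30.7 RPKM (SD, n = 12) for Sparcl1 and 172 ± 23.2 RPKM for Sparc. Much lower stood Postn at 10.2 ± 3.24 RPKM, Tnxb at 8.66 ± 1.96 and Thbs2 at 6.09 ± 1.11. Thbs1 at 3.31 ± 0.823 RPKM, Thbs4 at 3.21 ± 0.293 and Thbs3 at 2.49 ± 0.441 followed. Tnc was the lowest of the 9, at 0.290 ± 0.160 RPKM, with 13 to 96 reads per control heart. Ranges of neighbours in this order overlapped except between Sparc and Postn and between Thbs3 and Tnc. With the longest transcript in place of the exon union, Sparc (283 RPKM) stood above Sparcl1 (225 RPKM), so the order of these 2 genes depends on the length used.

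The order in EAM hearts at D15 was another. Sparc led at 500.2 ± 162 RPKM (SD, n = 4), followed by Sparcl1 at 82.0 ± 8.37, Postn at 31.1 ± 14.6 and Tnc at 28.5 ± 6.03. Postn and Tnc overlapped, and Tnc had moved from rank 9 to rank 4. Thbs4 (18.3 ± 2.39 RPKM) and Thbs1 (16.8 ± 2.90) came next with overlapping ranges. Thbs2 (7.22 ± 1.65 RPKM), Tnxb (5.76 ± 2.07) and Thbs3 (4.81 ± 0.848) closed the list. At D21 Sparc (476 ± 172 RPKM), Sparcl1 (154 ± 68.7) and Postn (42.9 ± 10.7) led, and from Postn down the ranges of all neighbours overlapped.

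**Figure D1:**
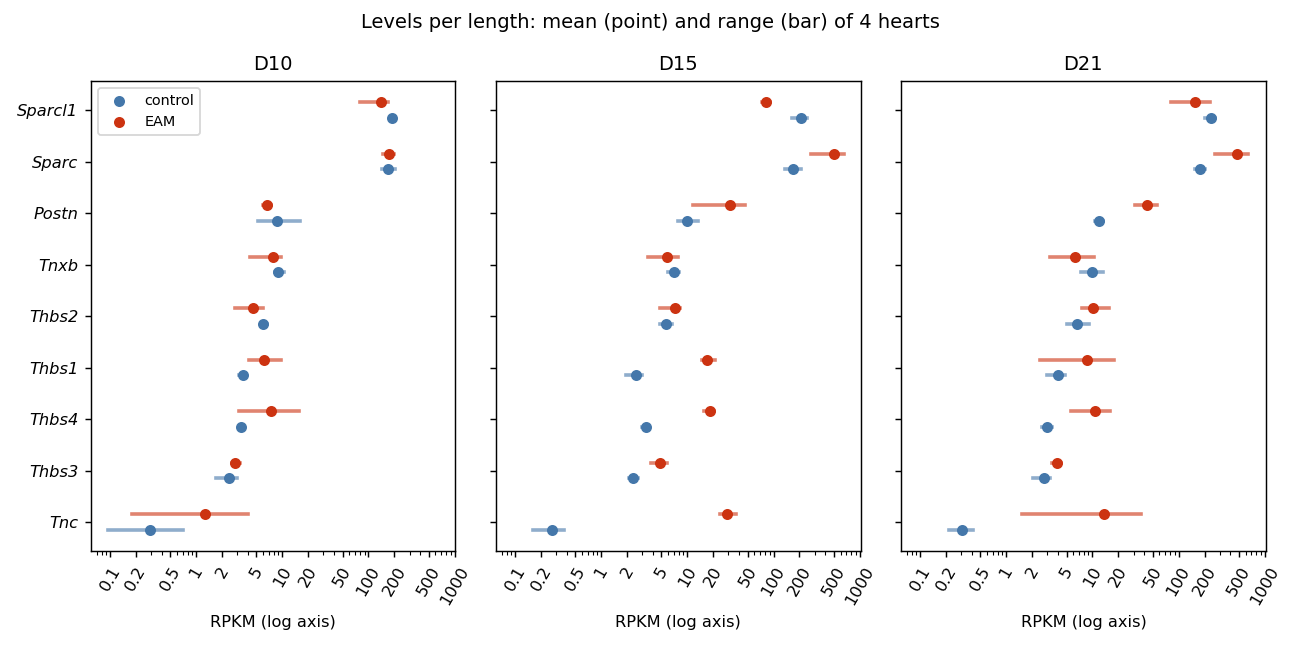
Level per length (RPKM, log axis) of the 9 members at D10, D15 and D21, with controls in blue and EAM hearts in red; points are means and bars the range of 4 hearts. Tnc is lowest in the controls of each day and reaches 28.5 RPKM in EAM hearts at D15, where Sparc lies above Sparcl1.

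EAM and control hearts were compared on each day with edgeR's quasi-likelihood test on the counts, with Benjamini-Hochberg adjustment over all genes tested. A gene was called at an adjusted p under 0.01 with at least a 2-fold change, the limits of the study. No member was called at D10, where 0 of 15029 genes were called (0.0%). On that day 2292 genes (15.3%) had an unadjusted p under 0.05 and DESeq2 called 48 genes higher and 4 lower. The study itself, at these limits, reported genes induced from D10 on, and cytokine and chemokine pathways already active on that day. Why the fit used here called none was not tested. Of the 9 members, 6 were called higher and 1 lower at D15, and 4 higher and 0 lower at D21. Over all genes tested, 18.1% were called higher and 12.9% lower at D15, and 4.13% higher and 1.16% lower at D21. The median log2 fold change of the members was 1.62 at D15 and 1.16 at D21, beside 0.02 and −0.01 for all genes. At D10, 2 members (Thbs1 and Thbs4) had an unadjusted p under 0.05 by edgeR, and DESeq2 and limma-voom also called 0 members. At D21, 6 members had an unadjusted p under 0.05, as did 46.4% of all genes.

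**Figure D2:**
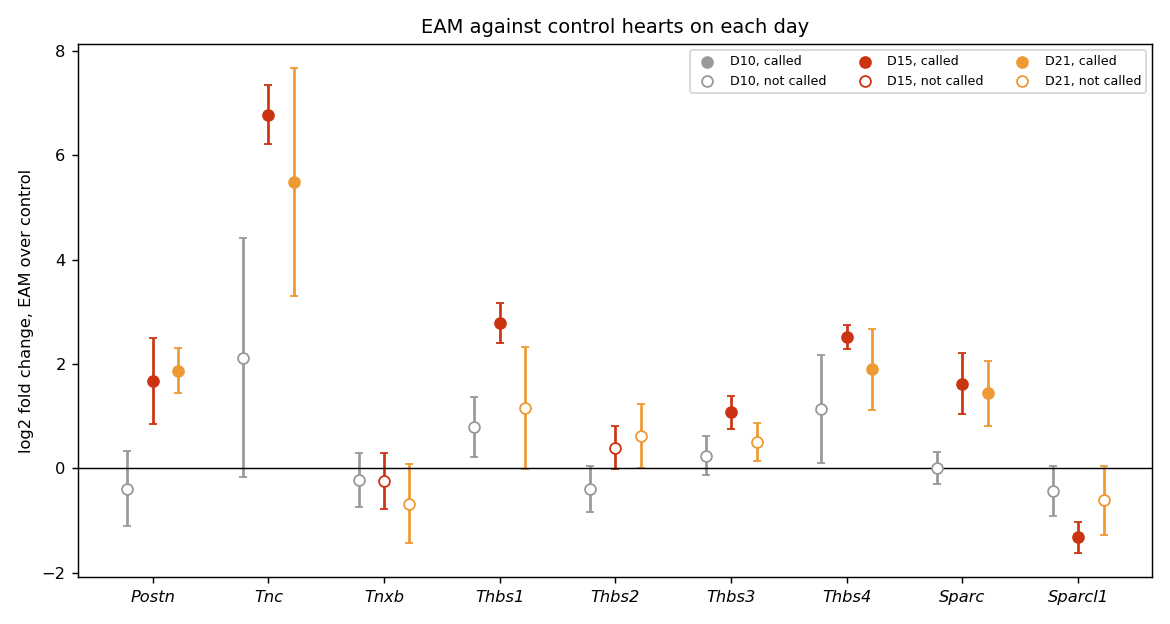
Log2 fold change of EAM over control hearts for each member at D10 (grey), D15 (red) and D21 (orange), with 95% confidence intervals (edgeR, 4 hearts against 4); filled points passed both limits. Tnc lies at 6.78 and Sparcl1 at −1.32 at D15, and every point of D10 is open.

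Tenascin-C rose most. Tnc (ENSMUSG00000028364, GRCm38 chromosome 4, 63959785 to 64047015) encodes a large glycoprotein that is laid down at sites of inflammation and repair and is nearly absent from the resting adult heart. In controls its CPM was 5.48, 1.74, 0.730 and 1.19 at D10 (replicates 1 to 4), 2.03, 1.24, 2.12 and 2.89 at D15, and 2.19, 1.68, 3.20 and 2.56 at D21. In EAM hearts it was 30.8, 1.42, 5.24 and 2.43 CPM at D10, 188, 225, 187 and 287 at D15, and 63.5, 56.8, 11.8 and 288 at D21. At D10 replicate 1 alone stood above all 12 controls, whereas on D15 and D21 all 4 EAM hearts did. All EAM hearts lay above the controls of their own day for 34.6% of all genes tested at D15 and 17.8% at D21. The share against all 12 controls, a stricter comparison, is not given here. The log2 fold change was 2.12 ± 1.01 (SE) at D10 (adjusted p = 0.339), 6.78 ± 0.25 at D15 (adjusted p = 3.88e-08) and 5.48 ± 0.96 at D21 (adjusted p = 0.00721). Tnc ranked 71 of 15693 genes by fitted log2 fold change at D15 and 32 of 15266 at D21. Without EAM replicate 1 the D10 value fell to 0.39 (adjusted p = 0.827), and without control replicate 1 it was 3.01 (adjusted p = 0.390), so the D10 size rested on these hearts. Against all 12 controls Tnc was called at D10, at 2.19 (adjusted p = 0.00818), where 4.07% of all genes were called higher. Most of those controls are of other days, so day and EAM are partly mixed in every comparison with all 12 controls. At D21 the value was 4.22 without EAM replicate 4 (adjusted p = 0.00670).

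Tenascin-X was not called on any day. Tnxb (ENSMUSG00000033327, chromosome 17, 34670535 to 34719815) encodes a tenascin that binds collagen fibrils and whose loss weakens connective tissue. Its CPM in EAM hearts was 52.1, 112, 96.7 and 118 at D10, 55.2, 43.1, 86.8 and 96.2 at D15, and 54.3, 82.9, 128 and 39.5 at D21. Controls had 99.7, 127, 112 and 99.9 at D10, 78.8, 73.5, 91.1 and 98.8 at D15, and 161, 89.0, 124 and 114 at D21. The arms overlapped on every day, although the lowest value of each day was in an EAM heart. EAM over control, the log2 fold change was −0.23 ± 0.23 (SE) at D10 (adjusted p = 0.586), −0.25 ± 0.24 at D15 (adjusted p = 0.366) and −0.67 ± 0.33 at D21 (adjusted p = 0.145). Leaving out 1 heart moved it from −0.36 to −0.02 at D10, from −0.41 to −0.04 at D15 and from −1.03 to −0.46 at D21. None of these fits called it. The value of −1.03, without EAM replicate 3, had an adjusted p of 0.0148. The ratio of Tnc to Tnxb in CPM lay between 0.00651 and 0.0550 in the 12 controls. In EAM hearts it lay between 0.0127 and 0.591 at D10, with 3 of 4 inside the control range, between 2.16 and 5.21 at D15 and between 0.0928 and 7.28 at D21.

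Periostin was higher in EAM hearts at D15 and D21 and lay within the control range at D10. Postn (ENSMUSG00000027750, chromosome 3, 54361109 to 54391037) encodes an integrin ligand that aids collagen cross-linking and is widely used to mark activated cardiac fibroblasts. Its CPM in EAM hearts was 51.9, 61.2, 54.8 and 63.9 at D10, 267, 404, 101 and 310.5 at D15, and 495, 339, 274 and 385 at D21. Controls had 139.7, 59.6, 45.2 and 57.5 at D10, 116, 68.5, 78.5 and 85.6 at D15, and 109.7, 92.8, 97.9 and 114 at D21. At D15, 3 EAM hearts stood above all 12 controls and replicate 3 stood inside the control range. At D21 all 4 stood above (all EAM hearts lay above the controls of that day for 17.8% of genes). The log2 fold change was −0.39 ± 0.32 (SE) at D10 (adjusted p = 0.504), 1.68 ± 0.36 at D15 (adjusted p = 0.00227) and 1.87 ± 0.19 at D21 (adjusted p = 0.00315). The negative sign at D10 rested on control replicate 1, without which the value was 0.08 (adjusted p = 0.727). EAM replicate 1 of D10, the heart with raised Tnc, had the lowest Postn of its group.

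Of the 4 thrombospondin genes, 3 were called higher at D15 and 1 of them, Thbs4, also at D21, beside 18.1% and 4.13% of all genes. Thrombospondin-1 binds the receptors CD36 and CD47, restrains vessel growth and can release active TGF-β from its latent form. Thbs1 (ENSMUSG00000040152, chromosome 2, 118111876 to 118127133) had 58.0, 38.6, 24.6 and 26.1 CPM in EAM hearts at D10, 91.1, 99.96, 88.9 and 127 at D15, and 49.2, 35.9, 14.8 and 108 at D21. Controls had 19.2, 22.3, 21.0 and 22.02 at D10, 17.98, 11.8, 13.5 and 17.6 at D15, and 18.3, 20.9, 27.4 and 29.2 at D21. All 4 EAM hearts stood above the controls of their day at D10 and at D15, patterns met by 4.41% and 34.6% of genes tested. Above all 12 controls stood 2 of the 4 at D10 and all 4 at D15. At D21 replicate 3 lay below every control of that day and the other 3 hearts above. Fitted log2 fold changes were 0.79 ± 0.26 (SE) at D10 (adjusted p = 0.328), 2.78 ± 0.17 at D15 (adjusted p = 7.89e-07) and 1.16 ± 0.52 at D21 (adjusted p = 0.112), so only D15 was called. The D21 value was 0.51 without EAM replicate 4 (adjusted p = 0.324) and was called against all 12 controls, at 1.43 (adjusted p = 0.00101), where 10.1% of all genes were called higher. The D10 value was 0.48 without EAM replicate 1 (adjusted p = 0.403).

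Thrombospondin-4 belongs to the subgroup of thrombospondins that assemble with more chains, lacks the TGF-β-activating part and is known as a stress-response protein of heart and muscle. Thbs4 (ENSMUSG00000021702, chromosome 13, 92751590 to 92794818) had 51.3, 10.4, 23.1 and 12.5 CPM in EAM hearts at D10, 51.2, 65.4, 67.8 and 55.8 at D15, and 52.8, 23.6, 18.7 and 47.4 at D21. Its controls had the smallest SD relative to the mean of all members, with levels between 8.60 and 11.8 CPM over 12 hearts. At D10, 3 EAM hearts stood above all 12 controls, replicate 1 far above, and on D15 and D21 all 4 did. Set against the controls of the day alone, 34.6% of genes at D15 and 17.8% at D21 had all EAM hearts above. The fit gave a log2 fold change of 1.13 ± 0.46 (SE) at D10 (adjusted p = 0.328), 2.51 ± 0.10 at D15 (adjusted p = 7.87e-08) and 1.90 ± 0.34 at D21 (adjusted p = 0.00775). Without EAM replicate 1 the D10 value was 0.46 (adjusted p = 0.480), and against all 12 controls Thbs4 was called at D10, at 1.24 (adjusted p = 0.00372).

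Thrombospondin-2, which also restrains vessel growth and helps clear matrix proteases, was not called on any day. Thbs2 (ENSMUSG00000023885, chromosome 17, 14665500 to 14694235) had 19.98, 41.6, 30.8 and 36.4 CPM in EAM hearts at D10, 55.0, 57.7, 33.3 and 56.2 at D15, and 109.9, 62.6, 56.0 and 52.7 at D21. Controls had 46.0, 40.4, 41.4 and 39.9 at D10, 35.1, 33.4, 43.7 and 46.3 at D15, and 63.5, 35.5, 43.4 and 43.3 at D21. The fitted log2 fold change was −0.40 ± 0.19 (SE) at D10 (adjusted p = 0.343), 0.39 ± 0.18 at D15 (adjusted p = 0.0769) and 0.62 ± 0.27 at D21 (adjusted p = 0.104). The 95% interval at D15, from −0.02 to 0.80, leaves out a 2-fold change, and that at D21, from 0.01 to 1.23, does not. Without EAM replicate 1 of the day the value was −0.22 at D10 (adjusted p = 0.459) and 0.32 at D21 (adjusted p = 0.247).

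Thrombospondin-3, a relative of thrombospondin-4, showed a small rise with little scatter. Thbs3 (ENSMUSG00000028047, chromosome 3, 89215180 to 89226837) had 12.7, 15.8, 13.3 and 13.1 CPM in EAM hearts at D10, 23.2, 23.0, 18.3 and 28.3 at D15, and 20.9, 17.4, 16.5 and 19.2 at D21. Controls of all days lay between 8.20 and 15.4 CPM. All 4 EAM hearts of Thbs3 stood above all 12 controls at D15 and at D21 (above the controls of the day for 34.6% and 17.8% of genes). Its log2 fold change was 0.24 ± 0.16 (SE) at D10 (adjusted p = 0.436), 1.07 ± 0.14 at D15 (adjusted p = 1.06e-04) and 0.51 ± 0.16 at D21 (adjusted p = 0.0395). The D15 value lay close to the 2-fold limit and dropped to 0.99 without EAM replicate 4 (adjusted p = 2.73e-04). Exons of Thbs3 overlap those of Mtx1 on the other strand, and the sources used here do not give the strand setting of the counting, so reads of the shared bases cannot be told apart. Mtx1 itself had a log2 fold change of 0.03 at D15 (adjusted p = 0.602).

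SPARC rose and SPARC-like 1 fell at D15. SPARC (osteonectin) binds collagen and takes part in the processing of procollagen, and its absence is known to weaken the cardiac matrix. Sparc (ENSMUSG00000018593, chromosome 11, 55394500 to 55423183) had 748, 612, 688 and 556 CPM in EAM hearts at D10, 2080, 2489, 1038 and 1972 at D15, and 2452, 1560, 1004 and 2197 at D21. Controls had 775, 613, 538 and 653 at D10, 783, 518, 610.1 and 613 at D15, and 678, 594, 683 and 760.5 at D21. At D10 the arms overlapped, and on D15 and D21 all 4 EAM hearts stood above all 12 controls, with replicate 3 lowest on both days. All EAM hearts lay above the controls of the day for 34.6% of genes at D15 and 17.8% at D21. The log2 fold change was 0.00 ± 0.14 (SE) at D10 (adjusted p = 0.995), 1.63 ± 0.26 at D15 (adjusted p = 3.19e-04) and 1.44 ± 0.28 at D21 (adjusted p = 0.00916).

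SPARC-like 1 (hevin), related to SPARC in sequence, is made in blood-vessel walls of many tissues. Sparcl1 (ENSMUSG00000029309, chromosome 5, 104079111 to 104113733) had 235, 497, 445 and 477 CPM in EAM hearts at D10, 226, 216, 271 and 250.2 at D15, and 339, 538, 689 and 238 at D21. Controls had 555, 524, 546 and 582 at D10, 709, 486, 613 and 660.1 at D15, and 706, 589, 696 and 785 at D21. At D15 all 4 EAM hearts stood below all 12 controls (35.9% of genes had all EAM hearts below the controls of that day). At D10 all 4 stood below the 4 controls of that day, a pattern met by 3.75% of genes tested, and 3 stood below all 12 controls. On the log2 scale EAM over control was −0.43 ± 0.21 (SE) at D10 (adjusted p = 0.339), −1.32 ± 0.13 at D15 (adjusted p = 1.76e-05) and −0.61 ± 0.29 at D21 (adjusted p = 0.128), so D15 alone was called. Without EAM replicate 1 the D10 value was −0.23 (adjusted p = 0.387), and without EAM replicate 4 the D21 value was −0.40 (adjusted p = 0.184). The 7 endothelial markers summed to 717 to 786 CPM in EAM hearts at D15 and to 1053 to 1387 in controls of that day, and the 8 smooth muscle and pericyte markers to 547 to 999.8 against 1671 to 2033. Of these markers, 2 of 7 endothelial and 4 of 8 smooth muscle and pericyte genes were called lower at D15, when 12.9% of all genes were, and their part in the Sparcl1 result was not tested.

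The ratio of Sparc to Sparcl1 in CPM in controls lay between 0.928 and 1.40 over the 12 hearts. In EAM hearts it lay between 1.17 and 3.19 at D10, between 3.84 and 11.5 at D15 and between 1.46 and 9.23 at D21. The ranges of controls and EAM hearts did not overlap at D15 or D21.

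**Figure D3:**
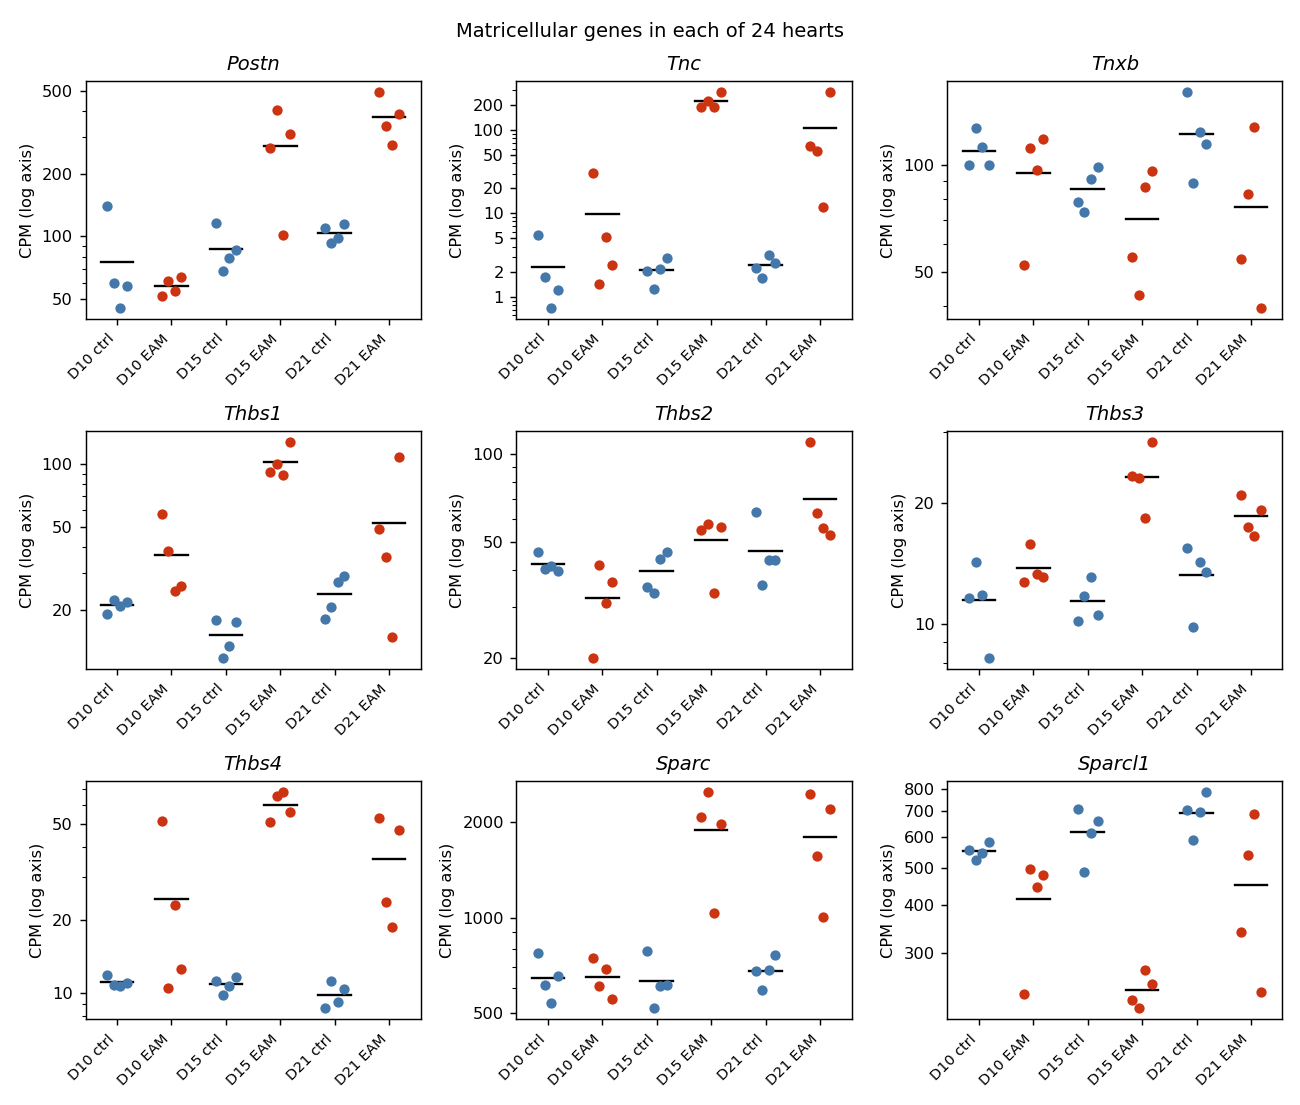
CPM (log axis) of each member in each of the 24 hearts, with controls in blue, EAM hearts in red and a bar at the mean of 4 hearts. At D15 all EAM hearts lie above all controls for Tnc, Thbs1, Thbs3, Thbs4 and Sparc and below them for Sparcl1, while Postn, Tnxb and Thbs2 overlap. Of all genes tested at D15, 34.6% had all EAM hearts above the controls of that day and 35.9% had all below.

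**Figure D4:**
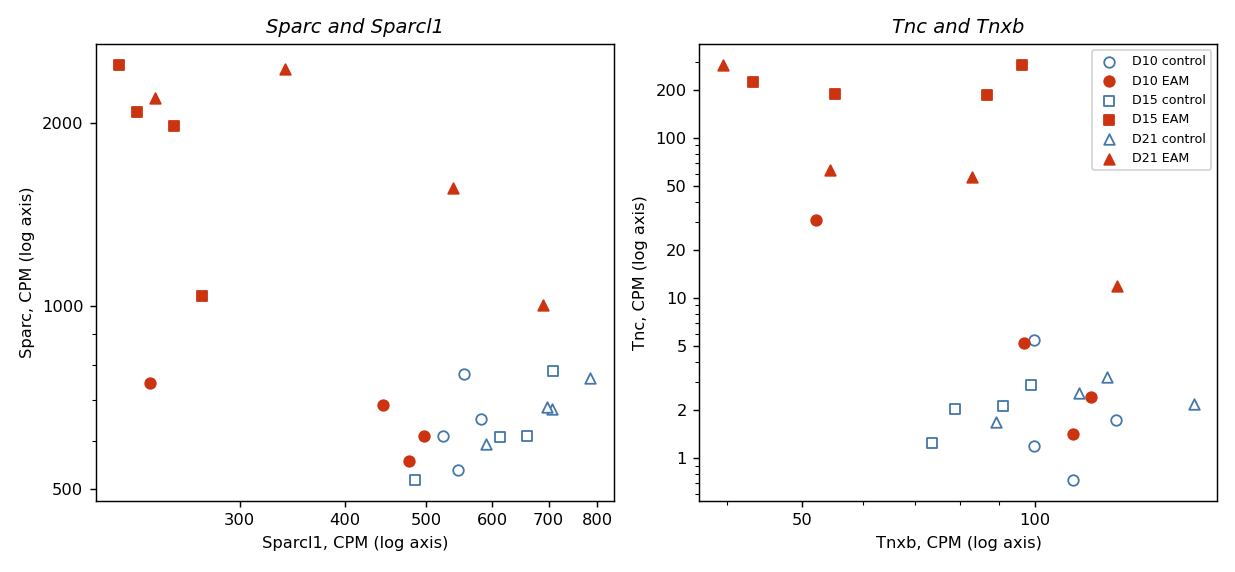
Sparc against Sparcl1 (left) and Tnc against Tnxb (right) in CPM on log axes, 1 point a heart, open blue for controls and filled red for EAM, with shapes for the day. Controls cluster at Sparc-to-Sparcl1 ratios of 0.928 to 1.40, and EAM hearts of D15 lie at 3.84 to 11.5.

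The calls at D21 depended on the test, on a block for the replicate number and on single hearts. Limma-voom called Postn but not Tnc (adjusted p = 0.0368), Thbs4 (adjusted p = 0.0170) or Sparc (adjusted p = 0.0142), and with total counts in place of TMM Sparc was not called (adjusted p = 0.0101). Neither labels nor methods pair EAM with control mice, and the main calls come from a fit without pairs. Deviations of hearts with the same number correlated weakly at D21 (0.101 to 0.307), so a fit with that number as a block was set beside it. With this replicate block Postn stayed called (adjusted p = 0.00188) while Tnc (adjusted p = 0.0133), Thbs4 (adjusted p = 0.0145) and Sparc (adjusted p = 0.0157) did not pass 0.01. Leaving out any 1 of the 4 controls ended all 4 calls, with adjusted p values from 0.0135 to 0.0359. Leaving out EAM replicate 1 or 2 ended the calls of Tnc, Thbs4 and Sparc (adjusted p from 0.0125 to 0.0286), and leaving out EAM replicate 4 ended those of Thbs4 and Sparc (0.0135 and 0.0156 as adjusted p). Without EAM replicate 3, the EAM heart with the lowest level of each of the 4 genes, all 4 remained called. The log2 fold changes kept their direction in each of these fits.

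Whether the EAM effect differed between days was tested as a contrast in 1 edgeR fit of all 24 hearts. From D10 to D15 the effect grew for 4 members, with a difference in log2 fold change of 4.60 ± 1.28 (SE) for Tnc (adjusted p = 0.00767), 2.02 ± 0.47 for Postn (adjusted p = 0.00305), 1.94 ± 0.53 for Thbs1 (adjusted p = 0.00720) and 1.57 ± 0.34 for Sparc (adjusted p = 0.00233). Of all 16318 genes, 5.38% were called for a larger effect at D15 and 7.35% for a smaller one. The difference of Thbs3, 0.78 ± 0.22, had an adjusted p of 0.00940 but was under 2-fold. Those of Thbs4 (1.33 ± 0.51, adjusted p = 0.0395) and Sparcl1 (−0.94 ± 0.34, adjusted p = 0.0309) did not pass, and both did without EAM replicate 1 of D10, at 2.0 (adjusted p = 3.83e-04) and −1.14 (adjusted p = 0.00434). The difference of Tnc was 3.70 without control replicate 1 of D10 and 6.34 without EAM replicate 1 of D10, and limma-voom did not call it (adjusted p = 0.0289). The calls of Postn and Sparc held without any 1 heart, but that of Postn was lost with the replicate block (adjusted p = 0.0101). Those of Tnc and Thbs1 were lost in 12 and 14 of the 24 fits that leave out 1 heart (adjusted p up to 0.0444 and 0.0172), among them each EAM heart of D10 but replicate 1, each EAM heart of D15 but replicate 3, each control of D15, controls 1 and 2 of D10 and, for Thbs1, controls 3 and 4 of D10.

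From D15 to D21 no member passed (0 of 9 by edgeR, DESeq2 and limma-voom), and 3 members had an unadjusted p under 0.05, beside 40.7% of all genes. Over all genes, 2.74% were called for a larger and 0.919% for a smaller effect at D21. The difference closest to the limits was that of Thbs1, −1.62 ± 0.53 (adjusted p = 0.0283), which passed without EAM replicate 4 of D21 at −2.26 (adjusted p = 5.52e-04). Postn differed by 0.21 ± 0.46 (95% interval −0.75 to 1.18) and Sparc by −0.18 ± 0.34 (−0.88 to 0.53) between these days. From D10 to D21, again 0 of 9 were called by edgeR's quasi-likelihood test. DESeq2 and edgeR's likelihood ratio test called 2, Postn and Sparc. An unadjusted p under 0.05 was met by 4 members and 18.0% of all genes, and 0.0735% of all genes were called for a larger and 0.735% for a smaller effect. The difference was 2.23 ± 0.47 for Postn (adjusted p = 0.0114) and 1.40 ± 0.34 for Sparc (adjusted p = 0.0290). Without EAM replicate 3 of D21 or of D15 both passed in edgeR, and Postn also passed without control replicate 3 of D10 or EAM replicate 2 of D15.

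Control hearts were also compared between days. In no pair of days was a member called, by edgeR, DESeq2 or limma-voom, and 2 members at D15 against D10, 1 at D21 against D10 and 2 at D21 against D15 had an unadjusted p under 0.05, beside 16.8%, 28.1% and 9.74% of all genes. Of all genes, 0.0% were called higher and 0.0718% lower at D15 against D10, 0.607% and 0.353% at D21 against D10, and 0.0% in either direction at D21 against D15. Among the marker lists, 4 of 4 atrial genes were called higher and 5 of 5 platelet genes lower in controls at D21 against D10. Fits with the controls of all days carry such shifts, and their part in the calls was not tested. The largest shift with an unadjusted p under 0.05 was that of Thbs1, higher at D21 than at D15 by 0.64 on the log2 scale (adjusted p = 0.443).

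Within the EAM groups the members fell on a range of relations to the leucocyte markers of the same heart. For this description each log2(CPM + 1) value, and the log2 of the summed markers plus 1, was taken as a deviation from its group mean, which leaves 12 EAM hearts of 3 days that share libraries and scaling. Pearson's r was 0.93 for Thbs4, 0.92 for Tnc, 0.77 for Thbs1 and 0.74 for Sparc, and −0.95 for Sparcl1 and −0.88 for Tnxb. It was 0.33 for Postn, 0.19 for Thbs3 and −0.15 for Thbs2. Spearman's rho for these genes ran from −0.96 for Sparcl1 to 0.94 for Tnc. Without the 2 hearts farthest from the median of the marker sum (EAM replicate 1 of D10 and replicate 3 of D21), r was 0.83 for Tnc, 0.86 for Thbs4, −0.91 for Sparcl1 and 0.41 for Postn. The same values were computed for 12 marker lists and 9 members, and other lists gave values of like size. Against the 7 endothelial markers r was 0.96 for Sparcl1, −0.92 for Tnc and −0.90 for Thbs4. Against the 7 cardiomyocyte markers it was −0.91 for Sparc and 0.91 for Tnxb, and against the 8 smooth muscle and pericyte markers 0.92 for Tnxb and −0.86 for Sparc. The relations are therefore not particular to the leucocyte list. All are given as a description and carry no test.

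**Figure D5:**
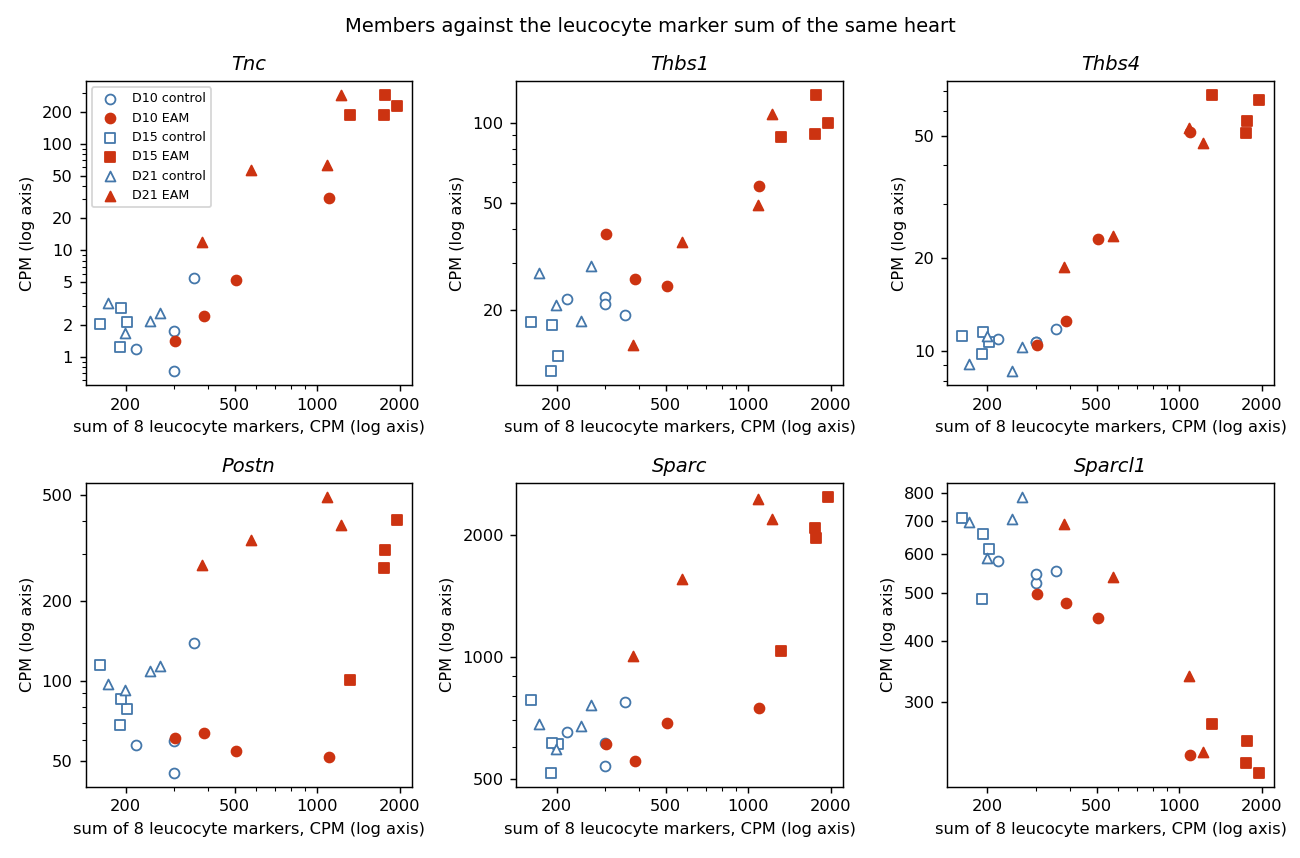
CPM of 6 members against the sum of 8 leucocyte markers in the same heart, both on log axes, 1 point a heart, open blue for controls and filled red for EAM, with shapes for the day. Over all hearts Thbs4 and Tnc are higher and Sparcl1 lower where the sum is high, although among the EAM hearts of D15 the highest Thbs4 (67.8 CPM) goes with the lowest sum (1314 CPM). Postn and Sparc of the 4 EAM hearts of D10 lie between 51.9 and 63.9 CPM and between 556 and 748 CPM.

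Single hearts with like leucocyte sums can be set side by side. EAM replicate 1 of D10 had a leucocyte sum of 1100 CPM, and EAM replicate 1 of D21 had 1088. In these hearts Thbs4 was at 51.3 and 52.8 CPM, Thbs1 at 58.0 and 49.2, and Tnc at 30.8 and 63.5. Postn, by contrast, was at 51.9 CPM in the D10 heart and at 495 in the D21 heart, Sparc at 748 and 2452, and Thbs2 at 19.98 and 109.9. These hearts were chosen after their values were seen, they are single animals of different days and library codes, and the difference between them was not tested. Their atrial sums were 1576 and 180.5 CPM. EAM replicate 4 of D21, with a leucocyte sum of 1226 CPM, had Thbs4 at 47.4 CPM, Thbs1 at 108 and Tnc at 288, so neither Thbs1 nor Tnc was alike in all hearts with such a sum.

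Between members, deviations from the group mean over all 24 hearts were most alike for Tnxb and Sparcl1 (Pearson's r = 0.85), Tnc and Thbs4 (0.80), Postn and Sparc (0.80) and Tnc and Thbs1 (0.78). Sparcl1 ran against Thbs4 (−0.79) and Tnc (−0.78). For Postn and Tnc r was 0.29. Some of these pooled values differed by arm and others did not. For Postn and Sparc r was 0.84 over the 12 controls and 0.82 over the 12 EAM hearts. The other 3 of the closest pairs were weaker in controls, with 0.36 and 0.92 for Tnxb and Sparcl1, 0.30 and 0.85 for Tnc and Thbs4, and 0.18 and 0.86 for Tnc and Thbs1. Sparc and Sparcl1 ran together in controls (0.76) and against each other in EAM hearts (−0.70). For Sparcl1 and Tnc it was 0.32 in controls and −0.92 in EAM hearts, for Sparcl1 and Thbs4 0.18 and −0.86, and for Postn and Tnc 0.87 and 0.14. Control replicate 1 of D10 had the highest Postn (139.7 CPM) and the highest Tnc (5.48 CPM) of the 12 controls. The control value of 0.87 includes that heart and is not given without it, so this difference between arms may rest on 1 heart. Without EAM replicate 1 of D10, Tnc and Thbs4 gave 0.68 and Postn and Sparc 0.82. These too are descriptions over hearts that share libraries, with no test.

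The genes most like each member were sought by the same measure among 14222 other genes with a symbol and a mean of at least 1 CPM, over 24 hearts. Sparc was most like Ppic (r = 0.97), Mfap5 (0.96) and C1qtnf6 (0.95), of which Mfap5 encodes a microfibril protein. Postn was most like Scarf2 (0.90), Serpinf1 (0.87) and Mfap4 (0.87). Sparcl1 was most like Nrp1 (0.97), a co-receptor of VEGF, Itpkb (0.96) and Trib2 (0.96). Tnxb was most like Hmcn2 (0.95), Lama2 (0.93), a laminin chain of muscle basement membrane, and Epas1 (0.92). Tnc was most like Oas1a (0.95), an interferon-induced gene, and Jpt2 (0.95). Thbs4 was most like Nubp1 (0.97), Ltb (0.94), which encodes lymphotoxin β, and Slc9a3r1 (0.94). Thbs1 was most like Chl1 (0.92), Kctd11 (0.89) and Fem1b (0.89), Thbs2 like St6gal1 (0.88), Mxra8 (0.86) and Timp2 (0.85), and Thbs3 like Fgfr1 (0.85), Svep1 (0.77) and S100pbp (0.77). No list was shared by a pair of members. Thbs3 had the lowest likeness to its nearest gene.

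Since the edgeR fit used here called no gene at D10, unlike the study, the other lists are described for D15 and D21. Further genes of the matricellular family were taken from a list of 17, of which 13 passed the filter at D15. Among these, 7 were called higher and 0 lower on that day, when 18.1% of all genes were called higher and 12.9% lower. Their median log2 fold change was 1.10, beside 0.02 for all genes. Spp1, which encodes osteopontin, went from 2.63 ± 2.28 CPM in controls to 416 ± 285 in EAM hearts (SD, n = 4), a log2 fold change of 7.32 ± 0.71 (SE, adjusted p = 1.52e-05). The tenascin gene Tnn stood at 5.46 ± 0.92 (adjusted p = 4.92e-04) from a very low level, Tgfbi at 4.33 ± 0.15 (adjusted p = 2.75e-08) and Ccn4 at 2.84 ± 0.37 (adjusted p = 9.52e-05). At D21, 1 of 12 tested was higher, Spp1 at 6.72 ± 1.14 (adjusted p = 0.00688), and 2 were lower, Comp at −2.17 ± 0.25 (adjusted p = 0.00414) and Spock2 at −1.94 ± 0.29 (adjusted p = 0.00559), beside 4.13% and 1.16% of all genes called. With the replicate block Spp1 was not called (adjusted p = 0.0111), whereas Comp and Spock2 were. Comp encodes the remaining thrombospondin, cartilage oligomeric matrix protein. All 4 atrial markers and 2 of 6 endocardial and valve markers tested were called lower at D21, and their part in the Comp result was not tested. At D15, 0 of 4 and 3 of 6 were called lower (12.9% of all genes), and Comp was not called (0.11 ± 0.28, adjusted p = 0.739).

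Receptors of the members, 17 genes, were all tested. At D15, 9 were called higher and 4 lower (18.1% and 12.9% of all genes), and the median log2 fold change was 1.0. Higher were the integrin chains Itga4 (3.64 ± 0.14, SE, adjusted p = 6.41e-08), Itgb3 (2.42 ± 0.23, adjusted p = 1.48e-05) and Itga5 (2.02 ± 0.11, adjusted p = 3.37e-07), and Sdc4, a syndecan (2.71 ± 0.06, adjusted p = 8.90e-09). Itga4 is also carried by leucocytes. The thrombospondin receptors moved in different directions, Cd47 being higher by 1.02 and Cd36 lower by 1.08 on the log2 scale. Cacna2d1, a calcium-channel subunit that binds thrombospondins, was lower at D15 (−1.22 ± 0.16, adjusted p = 9.54e-05). At D21, 1 of 17 was called higher, Itga4 (1.98 ± 0.37, adjusted p = 0.00880), and 0 lower, beside 4.13% and 1.16% of all genes.

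Collagens, cross-linking enzymes and growth factors with which the members act made up a list of 12. Of these, 9 were called higher and 0 lower at D15 (median log2 fold change 1.78), beside 18.1% and 12.9% of all genes. At D21, 5 were higher and 0 lower (median 1.25), beside 4.13% and 1.16%. Lox, lysyl oxidase, had a log2 fold change of 5.86 ± 0.32 (SE) at D15 (adjusted p = 4.17e-07) and 4.50 ± 0.76 at D21 (adjusted p = 0.00682). Fn1, fibronectin, stood at 4.45 ± 0.39 at D15 (adjusted p = 8.80e-06) and 2.69 ± 0.48 at D21 (adjusted p = 0.00749). The collagen I genes Col1a1 (4.45 ± 0.36 and 3.20 ± 0.44) and Col1a2 (3.64 ± 0.33 and 2.75 ± 0.41) were called on both days. With the replicate block at D21 Fn1 was not called (adjusted p = 0.0144), and the other 4 were. Of the list genes called at D21, limma-voom did not call Spp1, Itga4, Lox or Fn1 (adjusted p from 0.0123 to 0.0792). The 8 fibroblast markers summed to 2054 to 3000 CPM in EAM hearts at D15 and 3027 to 3574 in controls, with 1 marker, Mfap5, called higher and 1, Gsn, called lower. The median log2 fold change of these 8 was 0.36, with 5 above 0. Of the 6 myofibroblast markers, 2 were called higher at D15 and 2 lower, with log2 fold changes of all 6 from −3.03 to 6.14.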

How the data were processed

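Libraries were paired-end, from a strand-marking kit. Per the methods, the authors aligned reads to GRCm38 with HISAT2 (2.0.4 in their processing notes), removed duplicates with Picard and counted them on Ensembl GRCm38.69 genes with featureCounts; they deposited raw counts. The sources used here do not give the strand setting. Tables for each sample and for the series differed in 0 cells. Software was edgeR 4.0.16, DESeq2 1.42.0 and limma 3.58.1 (under R 4.3.3), and Python 3.11.15 (pandas 2.3.3, numpy 2.4.6, scipy 1.17.1, matplotlib 3.10.9). A gene was kept if 4 or more samples had 10 or more reads, TMM factors were applied, and the quasi-likelihood test was run per day (8 hearts), over all 24 hearts for differences between days, and over 12 controls. SE was the log2 fold change over the square root of F. CPM and RPKM were made from the counts with TMM factors. Nothing in the labels says more than 1 library came from a mouse; p-values measure the spread between these hearts.

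The members and lists were chosen with earlier results of these data known. All 9 members are named; from other lists, up to 4 called genes with the largest change at D15 and a mean of at least 1 CPM, and the 3 genes most alike for each member by Pearson's r. For Tnc, 1 of these is not reported here. Cd47, Cd36, Cacna2d1, Comp, Spock2, Gsn and Mtx1 were named after their values were seen. Replicate numbers in the labels are shared by both arms, but neither labels nor methods call these mice pairs. The correlation of same-numbered hearts' deviations was above 0.1 for each number at D21 (0.101 to 0.307) but not at D10 (−0.093 to 0.407) or D15 (−0.105 to 0.043). The main fits hold no pairs, and the replicate block is given as an alternative. Alternatives were other tests, scalings and filters and leaving out each heart. The fitting was tested on simulated data.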

Additional observations from a re-analysis of the deposited data

Results flagged for a closer look

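In 3 of the 54 groups of 4 hearts examined (9 members in 6 groups), 1 heart lay farther from the rest than Dixon's 95% limit allows, about as many as chance gives at 1 in 20. Postn was at 139.7 CPM in control replicate 1 at D10, where the other 3 controls lay between 45.2 and 59.7, and that heart also had the highest Tnc of the 12 controls (5.48 CPM) and the highest atrial sum of its group (506 CPM). Tnc was at 30.8 CPM in EAM replicate 1 at D10, where the others lay between 1.42 and 5.24, and that heart had the highest leucocyte sum of its group (1100 CPM). Thbs2 was at 33.3 CPM in EAM replicate 3 at D15, where the others lay between 55.0 and 57.7, and that heart had the lowest leucocyte sum of its group (1314 CPM) and the highest cardiomyocyte sum (18520 CPM).

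The EAM effect differed between D10 and D15, by the contrast in the edgeR fit of 24 hearts, for 4 members: Tnc by 4.60, Postn by 2.02, Thbs1 by 1.94 and Sparc by 1.57 on the log2 scale. In the separate fit of D10, Sparc was at 0.00 and Postn at −0.39, whereas Tnc and Thbs1 already had positive values at D10, of 2.12 and 0.79, which were not called.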

How the results depend on the processing

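The 9 members gave 1890 log2 fold changes under alternatives, of which 1774 kept direction and side of the limits, 61 lost a call, 17 gained one and 38 changed sign. At D15 the members kept 6 calls higher and 1 lower except that Thbs3 was lost with all 12 controls and without EAM replicate 4 (5 to 6 higher and 1 lower over the fits without 1 heart). With all 12 controls 2 members (Tnc and Thbs4) and 4.07% of all genes were called higher at D10. At D21 the count of 4 higher became 1 with limma-voom, 1 with the replicate block, 3 with total counts (Sparc lost, adjusted p = 0.0101), 5 with all 12 controls (Thbs1 added, 10.1% of all genes higher) and 5 at an adjusted p under 0.05 with no fold limit (Thbs3 added), and ran from 0 to 4 without 1 heart; over all genes, 630 were called higher at D21 and 80 with limma-voom, 601 with the replicate block and 0 to 1477 without 1 heart. For D15 minus D10 the count of 4 ran from 2 to 5 higher and 0 to 1 lower without 1 heart, and the block ended the call of Postn; for D21 minus D15, from 0 to 1 lower; for D21 minus D10, 2 were higher with the likelihood ratio test and with DESeq2, and 0 to 2 without 1 heart. The block changed no other call of a member, and the cause was not tested. Of the 4 EAM hearts a day, 2 at D10 and 1 at D15 correlated best with the control of their own number. The block gave 1 gene called higher at D10 and 2772 higher and 2008 lower at D15. Between control hearts, the counts were 0 under every alternative.

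Every change of sign was of a value that was not called. Without 1 heart, EAM over control at D10 ran from −0.57 to 0.084 for Postn and −0.0762 to 0.0995 for Sparc; D15 minus D10 from −0.27 to 0.15 for Tnxb; D21 minus D15 from −0.0619 to 0.44 for Postn, −0.0542 to 0.44 for Thbs2 and −0.38 to 0.0225 for Sparc; D21 minus D10 from −0.32 to 0.63 for Thbs1 and −0.48 to 0.00706 for Sparcl1. Control hearts at D15 over D10 ran from −0.43 to 0.76 for Tnc, −0.15 to 0.00519 for Thbs2, −0.13 to 0.12 for Thbs3, −0.0494 to 0.0261 for Thbs4 and −0.13 to 0.0801 for Sparc, and at D21 over D10 from −0.22 to 0.97 for Tnc, −0.00715 to 0.28 for Tnxb, −0.0384 to 0.26 for Thbs2 and −0.000206 to 0.17 for Sparc. With limma-voom the D15 over D10 value of Tnc was 0.22. With total counts, Tnxb stood at 0.0862 for D15 minus D10, and Thbs3, Thbs4 and Sparc at 0.0104, 0.00279 and 0.00432 for control hearts at D15 over D10. Total counts moved the median of all genes by 0.17 at D15, 0.12 for D15 minus D10 and −0.15 for D21 minus D15, and split the calls of all genes into 3194 higher and 1554 lower at D15 and 1017 and 831 for D15 minus D10, where TMM gave 2838 and 2019, and 878 and 1199. Of 324 levels per length, 23 moved by more than 1 SD. Depth was ample for all members but Tnc in controls (13 to 96 reads).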
